A study of Mus musculus with 8 samples.

Results

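A set of 10 genes that move calcium across the plasma membrane and the membrane of the endoplasmic reticulum were followed in hind limb undifferentiated pleomorphic sarcomas (UPS) of mice. All 10 were found among the 26667 genes of the count table, and 9 of the 10 passed the filter on low counts that left 14867 genes for testing. The genes were chosen by function, as calcium pumps, exchangers, store release and store-operated entry genes that are not restricted to muscle, from a list drawn up with values of these same tumours in view. Their differences between the groups are therefore given as a description with standard errors, and counts of members past a threshold are printed only beside the same share over all genes. RNA from formalin-fixed, paraffin-embedded sections was sequenced from 4 KP tumours (KP 5 to KP 8) and 4 KPH2 tumours (KPH2 1 to KPH2 4), 1 library per tumour, with total counts from 6463221 to 13155510. KP mice carry floxed Trp53 (Trp53 fl/fl) among their Cre-dependent alleles, and KPH2 mice carry floxed Epas1 in addition, labelled Epas1 -/- in the tumours. Both groups therefore share the Trp53 deletion and the other Cre-dependent changes of KP mice, and the strain is given as mixed 129/C57BL/6 for all 8 tumours. Lesions were started by adenoviral Cre injected into the calf muscle, so that stromal, blood and muscle cells that did not take up the virus keep Epas1. Per the study's methods, the mice were of both sexes and at least 8 weeks old when tumours were started, and they were killed 7 weeks later or once a tumour had grown to the size limit. Which of these applied to each of the 8 tumours is not given in the sources used here. The study left out 1 knockout library as a technical outlier, and KPH2 1 is the tumour missing from the smaller of the deposited normalized tables. The text of the study is not uniform on this, since one passage counts 3 KP and 4 KPH2 tumours and another 4 wild-type and 3 knockout tumours. The values of KPH2 1 are given apart, and fold changes are given without it and then with it. Group means do not include it.

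A resting cell keeps its cytosolic calcium low with ATP-driven pumps. Plasma membrane calcium ATPases (PMCA, the Atp2b genes) push calcium out of the cell, the sodium-calcium exchanger NCX1 (Slc8a1) trades it for sodium, and SERCA pumps (the Atp2a genes) load it into the endoplasmic reticulum. IP3 receptors such as Itpr1 release the store after receptor signalling, and when the store empties the sensors Stim1 and Stim2 open Orai1 at the surface, which lets calcium in from outside. The study asked what the loss of HIF-2α, the hypoxia-inducible factor that Epas1 encodes, does to these sarcomas, and calcium signalling was among the pathways it followed.

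HIF factors bind DNA at the letters ACGTG or GCGTG, and the start regions of the members were searched for them on both strands, CACGC and CACGT being the same letters read from the other strand. RefSeq promoters of GRCm38.p6, 250 bases before to 50 bases after a gene start, gave 11 entries for 8 of the 10 members, with none for Atp2a2 and Itpr1. At least 1 match stood in 9 of the 11 entries, beside 43.8% of all 32851 promoters of the same length. By gene it stood for 6 of the 8, and no share by gene over all promoters was computed. Atp2b1 and Atp2b2 had more than 1 entry each, all with a match. G and C ran from 47.7% (Atp2b4) to 79.3% (Atp2b1) of an entry, and the share over all promoters was not matched for it. A match is a description of the letters, not a bound site. The 250 bases before the start are printed for the 2 members that were higher in KPH2 2 to KPH2 4 than in every KP tumour. Stim2 (chr5:53998273-53998522, plus strand) holds the most matches of the 11 entries, 4, and Atp2b4 (chr1:133753748-133753997, minus strand) holds 0. G and C made up 76.7% of the 300 bases of Stim2 and 47.7% of those of Atp2b4. The Atp2b4 entry starts within the annotated span of the gene, so that a start further upstream would not be covered by it. In Stim2, a pair of the matches overlap by 1 letter. Both are written 5′ to 3′ along the gene, and capitals mark the matches.
Atp2b4: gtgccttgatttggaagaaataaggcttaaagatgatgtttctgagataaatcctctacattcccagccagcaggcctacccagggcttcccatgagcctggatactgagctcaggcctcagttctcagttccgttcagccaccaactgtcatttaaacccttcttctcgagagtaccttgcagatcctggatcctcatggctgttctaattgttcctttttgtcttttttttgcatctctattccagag
Stim2: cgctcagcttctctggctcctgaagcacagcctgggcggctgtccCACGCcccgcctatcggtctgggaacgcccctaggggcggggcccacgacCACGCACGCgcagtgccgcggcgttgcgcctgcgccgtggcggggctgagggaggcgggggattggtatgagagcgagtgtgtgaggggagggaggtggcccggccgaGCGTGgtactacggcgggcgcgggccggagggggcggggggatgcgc

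Levels are given as CPM, counts scaled to a TMM library size of 1e+06, which brings the libraries to a common composition. Epas1, the targeted gene, reached 59.2, 83.2, 86.9 and 84.1 CPM for KP 5, 6, 7 and 8, 53.4, 37.7 and 42.5 CPM for KPH2 2, 3 and 4, and 32.6 CPM in KPH2 1. Every KPH2 tumour lay below every KP tumour. Its log2 fold change was -0.81 (SE 0.19, adjusted p = 0.0742, edgeR) without KPH2 1 and -0.91 (adjusted p = 0.117, edgeR) with it. The count covers the whole gene, exons outside the floxed part included, as well as cells without recombination.

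The members did not move as a block. Without KPH2 1, the log2 fold changes of KPH2 over KP ranged from -0.90 for Itpr1 to 1.89 for Atp2b4, 4 of the 9 that passed the filter were positive and 5 negative, and their median was -0.23 beside -0.02 for all genes tested. Atp2b4 was the only member past an adjusted p of 0.05, 1 of 9, where 1.96% of all genes tested passed. DESeq2, run as an alternative, called Atp2b4 and Itpr1, 2 of 9, beside 7.2% of all genes to which it gave an adjusted p. At an unadjusted p of 0.05, Atp2b4, Stim2 and Itpr1 passed, 3 of 9, beside 17.8% of all genes. For the same 3 genes the KP and KPH2 tumours did not overlap, where 16.9% of all genes did not overlap. With KPH2 1 in the fit, 0 of 9 members passed the adjusted threshold in edgeR beside 0.00675% of all genes, and Atp2b4 and Slc8a1, 2 of 9, had an unadjusted p under 0.05, beside 14.7% of all genes. With it, 0 of 9 members had groups that did not overlap, beside 8.15% of all genes. Because the members were chosen on these tumours, nothing is read from these counts.

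**Figure D1:**
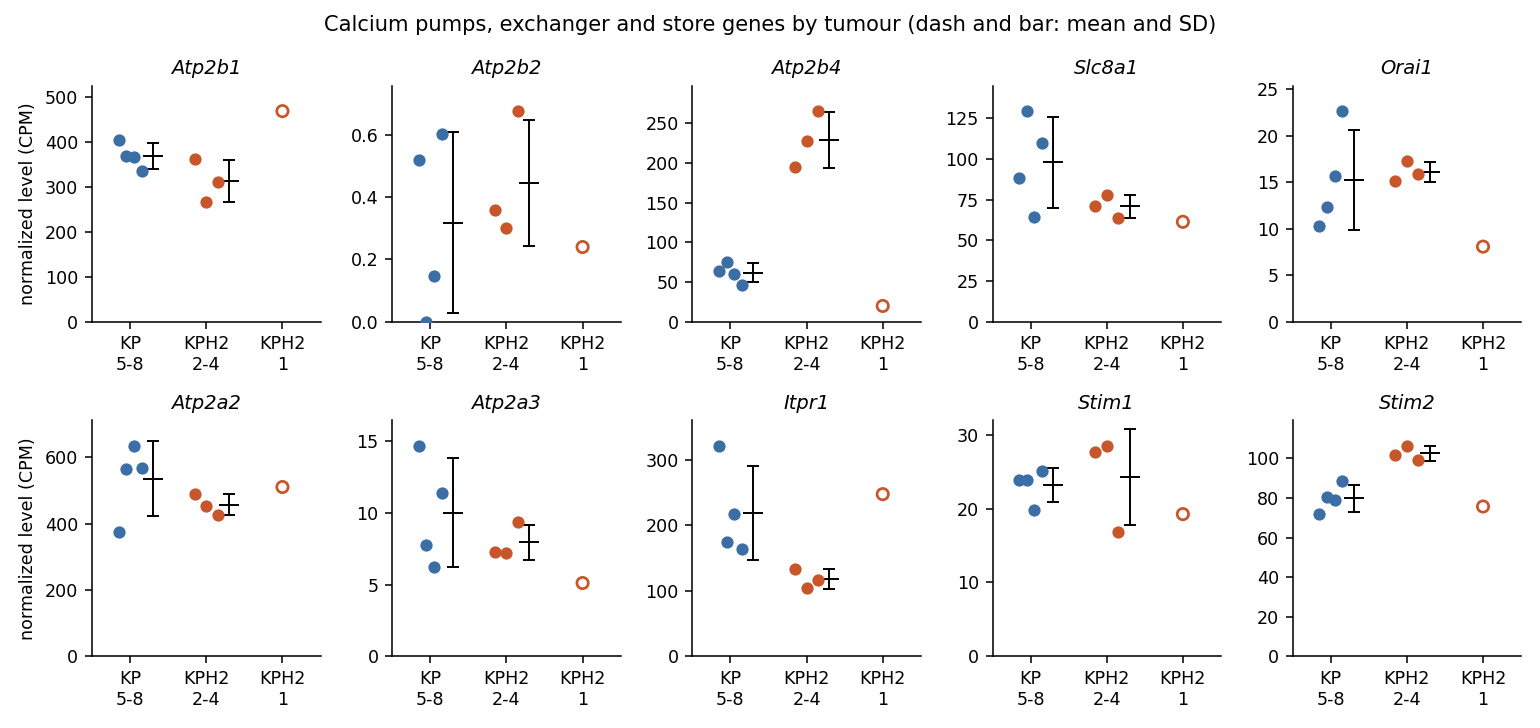
Normalized level of each of the 10 genes in CPM, 1 point per tumour and a linear axis from 0 in each panel, for KP 5 to 8 (blue), KPH2 2 to 4 (filled orange) and KPH2 1 (open orange). The dash and bar give mean and SD without KPH2 1. Atp2b4 sits between 46.8 and 75.8 CPM in KP and between 195 and 265 CPM in KPH2 2 to 4, while KPH2 1 is at 19.8 CPM.

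Of the surface pumps, Atp2b4 (PMCA4, Entrez Gene 381290, chromosome 1 of GRCm38, 133702674 to 133801059) showed the largest difference among the members. The KP tumours 5, 6, 7 and 8 had 64.2, 75.8, 60.5 and 46.8 CPM and KPH2 2, 3 and 4 had 195, 228 and 265 CPM. The lowest of these 3 KPH2 tumours lay above the highest KP tumour. The KP mean was 61.8 ± 12 CPM (SD, n = 4) against 229 ± 35.4 CPM (SD, n = 3) for KPH2 2 to KPH2 4, which is 3.71-fold higher in KPH2 (log2 fold change 1.89, SE 0.19). In sections of whole tumours, more or fewer cells of a type and more or less RNA per cell cannot be told apart. KPH2 1 went the other way, with 19.8 CPM from 248 counts, below every KP tumour. With it the log2 fold change was 1.52 and its standard error 0.62.

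Atp2b1 (PMCA1, Entrez Gene 67972, chromosome 10, 98914630 to 99026143), the housekeeping pump of most cells, was the most abundant surface pump. Its level was 404, 367, 366 and 335 CPM for KP 5, 6, 7 and 8, 362, 267 and 311 CPM for KPH2 2, 3 and 4, and 468 CPM in KPH2 1. KPH2 2 lay within the range of the KP tumours, KPH2 3 and KPH2 4 below it, and KPH2 1 above all of them. The log2 fold change was -0.23 (SE 0.15) without KPH2 1 and -0.06 (SE 0.18) with it. The tumour with the lowest Atp2b4, KPH2 1, was thus the tumour with the highest Atp2b1.

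Atp2b2 (PMCA2, Entrez Gene 11941, chromosome 6, 113743831 to 114042613), a pump of neurons, hair cells and lactating mammary gland, was barely detected. It had 7, 0, 1 and 8 counts in KP 5, 6, 7 and 8, 4, 3 and 6 counts in KPH2 2, 3 and 4, and 3 counts in KPH2 1. The 0 in KP 6 allows a level of up to 0.424 CPM (3 counts on the TMM library size, counting error only), so that no difference was detectable at this depth. It did not pass the filter and was not tested.

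Levels of the 3 surface pumps were set against exon length to compare them with one another. Summed over Atp2b1, Atp2b2 and Atp2b4, the level per length was 64.5, 60.7, 58.6 and 52.6 CPM per kb in KP 5, 6, 7 and 8, 74.3, 65.0 and 75.7 CPM per kb in KPH2 2, 3 and 4, and 68.1 CPM per kb in KPH2 1. Every KPH2 tumour was above every KP tumour in this sum, by a narrow margin for KPH2 3 (65.0 against 64.5 in KP 5). Of all single genes, 8.15% did not overlap with KPH2 1 included. In KPH2 1 the sum was almost all Atp2b1 (65.7 CPM per kb), with Atp2b4 at 2.39 CPM per kb. The sum holds members chosen on these tumours, so nothing is read from it. Atp2b4 made up 12, 15.1, 12.4 and 10.7% of it in KP 5, 6, 7 and 8 (12.6 ± 1.83%, SD, n = 4). Its share was 31.6, 42.3 and 42.3% in KPH2 2, 3 and 4 (38.7 ± 6.18%, SD, n = 3), and 3.51% in KPH2 1. The rest was almost all Atp2b1, and Atp2b2 stayed at or below 0.125%.

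**Figure D2:**
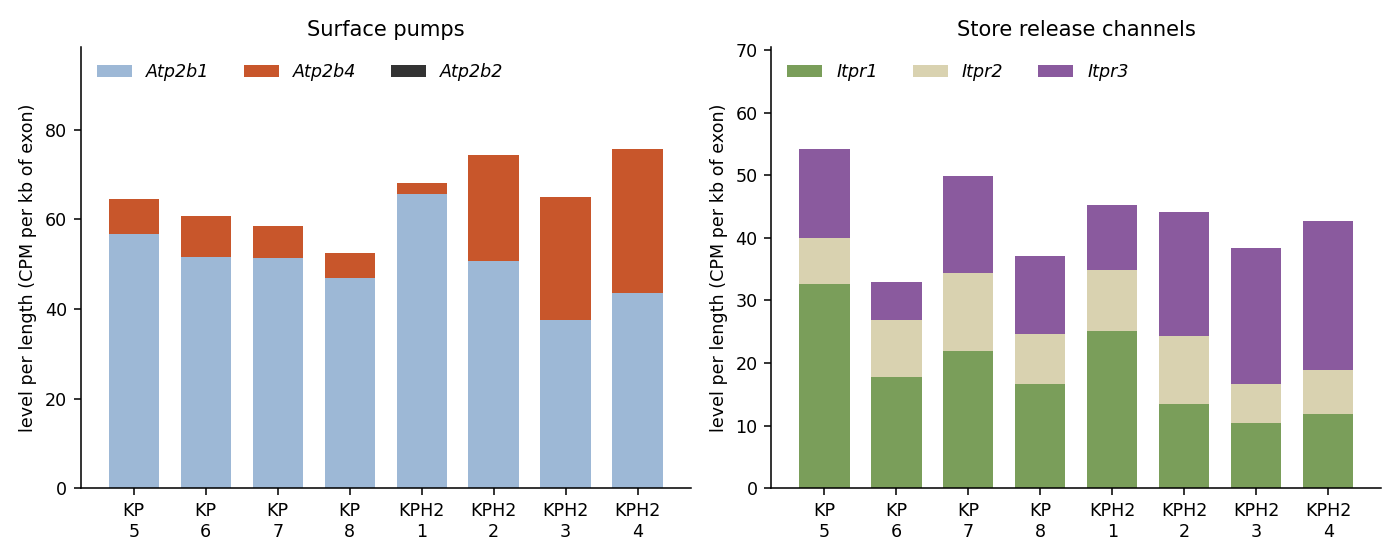
Stacked levels per length (CPM per kb of exon, linear axis from 0) in each tumour, for the surface pumps Atp2b1, Atp2b4 and Atp2b2 (left) and the IP3 receptors Itpr1, Itpr2 and Itpr3 (right). Atp2b4 makes up between 31.6 and 42.3% of the surface pumps in KPH2 2 to 4, between 10.7 and 15.1% in KP and 3.51% in KPH2 1, and Itpr1 makes up between 27.3 and 30.5% of the IP3 receptors in KPH2 2 to 4, between 44.0 and 60.1% in KP and 55.4% in KPH2 1.

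The exchanger Slc8a1 (Entrez Gene 20541, chromosome 17, 81373105 to 81738387), which dominates calcium extrusion in heart muscle, ran lower on average in KPH2 tumours. KP 5, 6, 7 and 8 held 88.2, 129, 64.0 and 110 CPM, KPH2 2, 3 and 4 held 71.3, 77.9 and 63.6 CPM, and KPH2 1 held 61.4 CPM. KP 7 lay among the KPH2 tumours, so the groups overlapped. The log2 fold change was -0.47 (SE 0.24) without KPH2 1 and -0.51 (SE 0.21) with it.

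Of the store pumps, Atp2a2 (SERCA2, Entrez Gene 11938, chromosome 5, 122453513 to 122502225) was the most abundant member in every tumour per length. The KP tumours 5, 6, 7 and 8 had 374, 566, 635 and 569 CPM and KPH2 2, 3 and 4 had 491, 453 and 427 CPM, with 510 CPM in KPH2 1. All 4 KPH2 tumours fell inside the range that KP 5 and KP 7 span. The log2 fold change was -0.23 (SE 0.20) without KPH2 1 and -0.19 (SE 0.18) with it. The count sums the splice forms, the widely expressed SERCA2b and the SERCA2a of heart and slow muscle, which cannot be told apart at the level of the gene.

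Atp2a3 (SERCA3, Entrez Gene 53313, chromosome 11, 72961169 to 72993043), a pump of blood, endothelial and some epithelial cells, was a minor part of the store pumps. Its level was 14.7, 7.78, 6.23 and 11.4 CPM for KP 5, 6, 7 and 8, 7.29, 7.21 and 9.35 CPM for KPH2 2, 3 and 4, and 5.12 CPM in KPH2 1. KPH2 2 to KPH2 4 lay inside the KP range and KPH2 1 below it, and the log2 fold change was -0.35 (SE 0.32) without KPH2 1 and -0.48 (SE 0.31) with it. Per length, Atp2a2 made up 95.3 to 98.8% of the sum of Atp2a2 and Atp2a3 across the 8 tumours, with 97.5 ± 1.53% in the 4 KP tumours (SD) against 97.9 ± 0.453% in KPH2 2 to KPH2 4 (SD, n = 3).

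Itpr1 (IP3 receptor type 1, Entrez Gene 16438, chromosome 6, 108213083 to 108551116), a release channel of the store, was the member lowest in KPH2 relative to KP. KP 5, 6, 7 and 8 held 321, 175, 217 and 164 CPM, and KPH2 2, 3 and 4 held 133, 104 and 117 CPM. These 3 KPH2 tumours lay below every KP tumour, while KPH2 1, at 247 CPM, lay inside the KP range. The KP mean was 219 ± 71.7 CPM (SD, n = 4) against 118 ± 14.7 CPM (SD, n = 3) for KPH2 2 to KPH2 4, which is 1.86-fold lower in KPH2 (log2 fold change -0.90, SE 0.25). With KPH2 1 the log2 fold change was -0.55 and its standard error 0.32. KP 5 stood above the other KP tumours, and without it the log2 fold change was -0.64.

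The other release channels were read beside Itpr1. Itpr3 (IP3 receptor type 3), a gene outside the members, reached 128, 55.7, 140 and 112 CPM for KP 5, 6, 7 and 8, 179, 196 and 214 CPM for KPH2 2, 3 and 4, and 93.0 CPM in KPH2 1. Its log2 fold change was 0.85 (SE 0.28), with an adjusted p of 0.169 in edgeR, and 0.65 with KPH2 1. Per length, Itpr1 made up 60.1, 53.7, 44.0 and 44.8% of the 3 IP3 receptors in KP 5, 6, 7 and 8 and 30.5, 27.3 and 27.8% in KPH2 2, 3 and 4. KPH2 1, at 55.4%, sat with the KP tumours. Itpr3 was the most abundant receptor per length in KPH2 2 to KPH2 4, at 21.8 ± 1.98 CPM per kb (SD, n = 3), and Itpr1 was at 11.9 ± 1.49 CPM per kb. In every KP tumour and in KPH2 1 the order was the opposite, with KP means of 22.2 ± 7.26 CPM per kb (SD, n = 4) for Itpr1 and 12.1 ± 4.13 CPM per kb for Itpr3.

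Of the store sensors, Stim2 (Entrez Gene 116873, chromosome 5, 53998523 to 54121057), the sensor that responds to small falls of store calcium and sets its resting level, stood at 72.0, 80.4, 78.9 and 88.6 CPM for KP 5, 6, 7 and 8. It was at 102, 106 and 99.3 CPM in KPH2 2, 3 and 4 and at 75.7 CPM in KPH2 1. KPH2 2 to KPH2 4 lay above every KP tumour, and KPH2 1 lay inside the KP range. The KP mean was 80.0 ± 6.83 CPM (SD, n = 4) against 102 ± 3.58 CPM (SD, n = 3) for KPH2 2 to KPH2 4, 1.28-fold higher in KPH2 (log2 fold change 0.36, SE 0.13). Its coefficient of variation between tumours was the lowest of the members in KPH2 2 to KPH2 4 (3.49%) and the second lowest in KP (8.54%, after 7.75% for Atp2b1). With KPH2 1 the log2 fold change was 0.26 (SE 0.14).

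Stim1 (Entrez Gene 20866, chromosome 7, 102261514 to 102437319), which gates the large entry that follows full store depletion, stood at 23.9, 23.9, 19.9 and 25.1 CPM for KP 5, 6, 7 and 8. It was at 27.6, 28.5 and 16.8 CPM in KPH2 2, 3 and 4 and at 19.3 CPM in KPH2 1. KPH2 2 and KPH2 3 lay above the KP tumours and KPH2 4 below them. The log2 fold change was 0.07 (SE 0.21) without KPH2 1 and -0.01 (SE 0.20) with it, so no direction is given. Per length, Stim2 exceeded Stim1 in every tumour, by 2.48- to 3.27-fold in KP, 3.04- to 4.87-fold in KPH2 2 to KPH2 4 and 3.24-fold in KPH2 1.

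Orai1 (Entrez Gene 109305, chromosome 5, 123015074 to 123030452), the pore of store-operated entry, lies 512849 bases from Atp2a2. Its level was 10.3, 12.3, 15.7 and 22.6 CPM for KP 5, 6, 7 and 8, 15.1, 17.3 and 15.9 CPM for KPH2 2, 3 and 4, and 8.07 CPM in KPH2 1. KPH2 2 to KPH2 4 fell inside the KP range, and KPH2 1 was the lowest of all 8. The log2 fold change was 0.08 (SE 0.28) without KPH2 1 and -0.12 (SE 0.31) with it, and again no direction is given. Relative to the sum of both sensors per length, Orai1 stood at 0.270, 0.298, 0.404 and 0.503 in KP 5, 6, 7 and 8, at 0.295, 0.325 and 0.351 in KPH2 2, 3 and 4, and at 0.215 in KPH2 1.

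**Figure D3:**
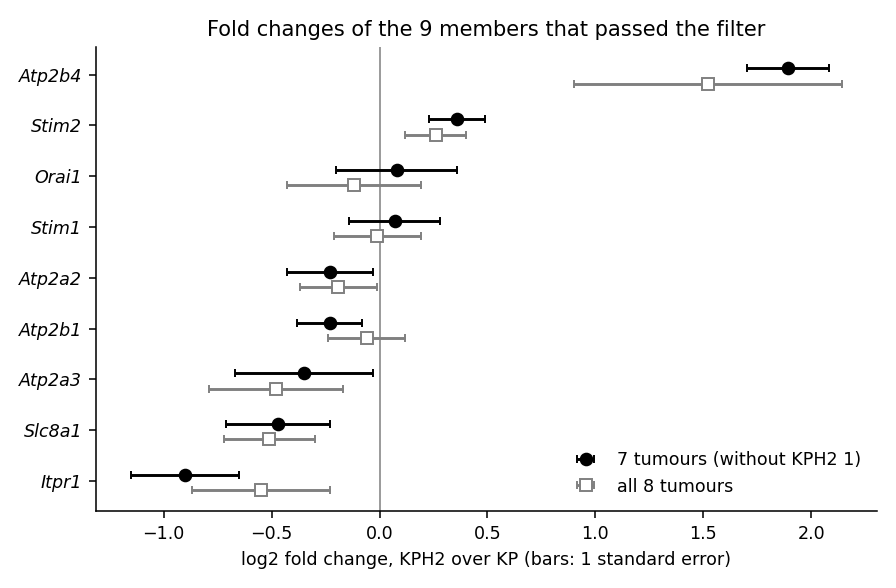
Log2 fold change of KPH2 over KP with 1 standard error for the 9 members that passed the filter, without KPH2 1 (black circles) and with all 8 tumours (open grey squares), on a linear axis. Atp2b4 stands at 1.89 and 1.52, Itpr1 at -0.90 and -0.55, and Stim1 and Orai1 change sign between the fits.

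Ranked per length, the members kept most of their order between the groups, while Atp2b4 stood higher and Itpr1 lower in the order of KPH2 2 to KPH2 4. In KP tumours Atp2a2 led at 65.3 to 111 CPM per kb, followed by Atp2b1 at 46.9 to 56.7, and Itpr1 at 16.6 to 32.6 with Stim2 at 14.5 to 17.9 CPM per kb, whose ranges overlapped. Orai1 (5.51 to 12.1), Atp2b4 (5.64 to 9.15), Stim1 (4.86 to 6.13) and Slc8a1 (3.44 to 6.96 CPM per kb) came next and overlapped with one another. Atp2a3 (1.35 to 3.19) and Atp2b2 (at most 0.0659 CPM per kb) came last. In KPH2 2 to KPH2 4 the third place belonged to Atp2b4 at 23.5 to 32.0 CPM per kb, ahead of Stim2 (at most 21.5), Itpr1 (10.5 to 13.5) and Orai1 (8.07 to 9.23 CPM per kb), with no overlap between these neighbours. Stim1 (4.11 to 6.98) and Slc8a1 (3.42 to 4.19 CPM per kb) overlapped. In KPH2 1 the order of the first 4 was that of the KP means, and Atp2b4, at 2.39 CPM per kb, stood above only Atp2a3 and Atp2b2. The length is that of all annotated exons of a gene, so a tumour that uses shorter transcripts would be set too low.

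Markers of other cell types were read beside the members. The summed level of 29 skeletal muscle markers was 1906 to 3401 CPM in KP tumours, 12249, 19329 and 4200 CPM in KPH2 2, 3 and 4, and 1468 CPM in KPH2 1. All 28 tested markers had positive fold changes (median 2.18), with 3 of them past the adjusted threshold in edgeR, 25 at an unadjusted p of 0.05 and 20 called by DESeq2. Atp2b4 and the summed muscle markers were both higher in KPH2 2 to KPH2 4 than in every KP tumour. Both were lowest of all 8 tumours in KPH2 1, with Atp2b4 at 19.8 CPM. Marker by marker, without KPH2 1, the groups did not overlap for 13 of the 28 tested, beside 16.9% of all genes. KPH2 4 had the highest Atp2b4 (265 CPM) with the least muscle signal of KPH2 2 to KPH2 4, and KP 8 the lowest Atp2b4 of the KP tumours (46.8 CPM) with the most muscle signal among them. With the muscle marker level as a covariate, the log2 fold change of Atp2b4 was 2.24 (SE 0.30) and did not pass the adjusted threshold, where 3 genes of the table did. The marker level and the group went together in these tumours, so this fit cannot separate them. The part of muscle in the Atp2b4 difference was not tested.

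**Figure D4:**
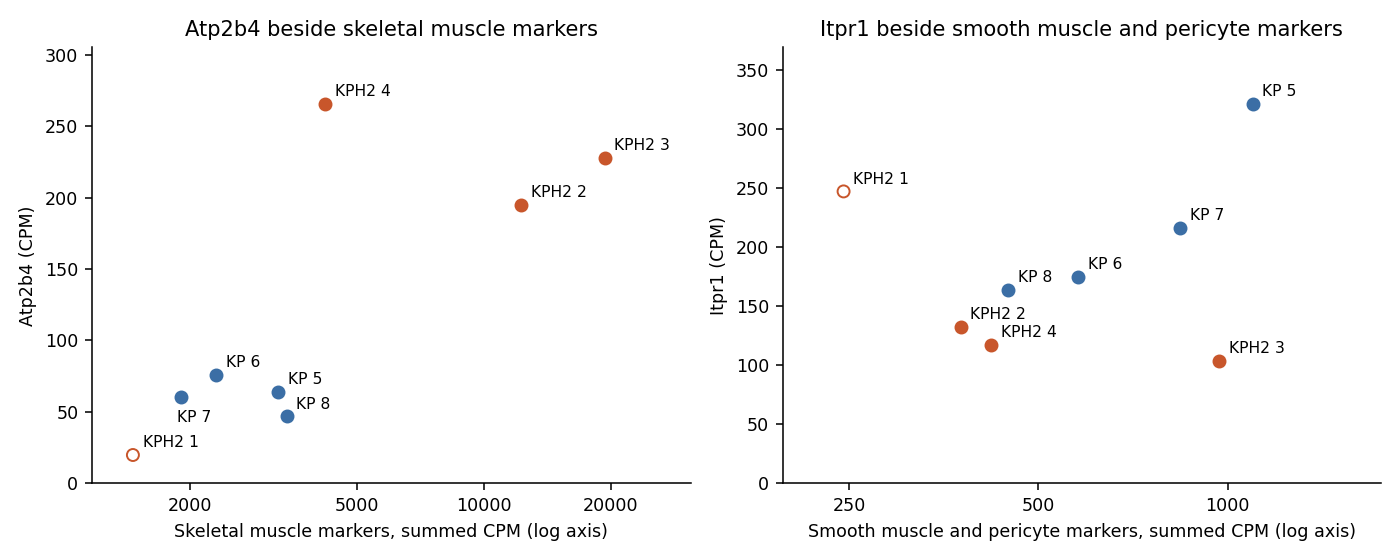
Atp2b4 (CPM) against the summed skeletal muscle markers (left) and Itpr1 (CPM) against the summed smooth muscle and pericyte markers (right), 1 point per tumour, with marker sums on a log axis and levels on a linear axis from 0. KPH2 4 has 265 CPM of Atp2b4 at 4200 CPM of muscle markers, KP 8 has 46.8 CPM at 3401 CPM, and KPH2 1 has 19.8 CPM at 1468 CPM. Ttn alone gives 2800 CPM of the sum in KPH2 4 and 2010 CPM in KP 8. KPH2 3 has the lowest Itpr1 (104 CPM) at 968 CPM of smooth muscle markers.

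Smooth muscle and pericyte markers, whose cells are rich in Itpr1, summed to 1096, 578, 840 and 448 CPM in KP 5, 6, 7 and 8, to 376, 968 and 420 CPM in KPH2 2, 3 and 4, and to 245 CPM in KPH2 1. Of the 10 tested, 8 had negative fold changes (median -0.44), with 1 past the adjusted threshold in edgeR, downward, 1 higher and 2 lower at an unadjusted p of 0.05, and 2 called lower by DESeq2. Within the KP tumours these markers and Itpr1 had the same order, whereas KPH2 3 had the second highest marker sum of all 8 with the lowest Itpr1, and KPH2 1 the lowest marker sum with the second highest Itpr1. The largest part of the KPH2 3 sum was Acta2, at 398 CPM, followed by Notch3 at 153 CPM. Myh11 and Cnn1 went the other way, lower in every KPH2 tumour than in every KP tumour. In KPH2 3 they were at 5.2 and 1.4 CPM, below their lowest KP levels of 7.85 and 7.87 CPM. The part of these cells in the Itpr1 difference was not tested.

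Endothelial markers summed to 395 to 701 CPM in KP, 355 to 403 CPM in KPH2 2 to KPH2 4 and 296 CPM in KPH2 1, and 11 of 12 had negative fold changes (median -0.55) with 0 past the adjusted threshold in edgeR (5 at an unadjusted p of 0.05, 3 in DESeq2). Atp2a3, a gene of such cells and of blood cells, had its highest level in KP 5, the KP tumour with the least endothelial signal. Its lowest level, 5.12 CPM, was in KPH2 1, the tumour with the least endothelial and the least T and NK cell signal of all 8. Macrophage markers summed to 2434 to 4475 CPM in KP, 1815 to 2712 CPM in KPH2 2 to KPH2 4 and 2270 CPM in KPH2 1. Their 11 fold changes were all negative (median -0.52, 0 past the adjusted threshold in edgeR, 4 at an unadjusted p of 0.05 and 1 in DESeq2). T and NK cell markers summed to 14.7 to 47.2 CPM in KP, 18.5 to 30.0 CPM in KPH2 2 to KPH2 4 and 9.27 CPM in KPH2 1, B cell markers to at most 4.23 CPM and adipocyte markers to at most 18.1 CPM in any tumour. Platelet markers summed to 34.2 to 67.2, 22.6 to 32.5 and 31.3 CPM in the same order. These 4 lists held 0 genes past the adjusted threshold in edgeR (1 platelet gene, lower in KPH2, at an unadjusted p of 0.05, and 0 in DESeq2). The part of these cells in the levels of the members was not tested.

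Neuron markers summed to 18.7 to 141 CPM in KP, 178 to 299 CPM in KPH2 2 to KPH2 4 and 48.8 CPM in KPH2 1, carried mostly by the neurofilament genes Nefl and Nefm, while the neuronal pump Atp2b2 stayed at 8 counts or fewer. Of 5 tested neuron markers, 0 passed the adjusted threshold in edgeR (1 at an unadjusted p of 0.05, 1 in DESeq2). Schwann cell markers summed to 23.5 to 35.8, 31.8 to 37.7 and 24.2 CPM in the same order. Mesenchymal markers, which mark the sarcoma cells and fibroblasts, were high throughout, at 12854 to 25539, 10393 to 18243 and 11362 CPM, and 1 of 10 (Pdgfra) passed, downward. No marker in these lists was at 0 in all 8 tumours.

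Other genes of calcium handling were read in 7 lists of 86 genes, 80 of which were tested. Of these, 0 passed the adjusted threshold in edgeR (18 were higher and 5 lower in KPH2 at an unadjusted p of 0.05, beside 17.8% of all genes in either direction, and DESeq2 called 13, beside 7.2% of all genes). The list of store genes restricted to muscle held 14 of the 18 higher genes and 10 of the 13 DESeq2 calls. With KPH2 1 in the fit edgeR also called 0. Leaving out KPH2 4 gave 7 calls, and leaving out KP 5 or KP 6 gave 1 call each. The lists that do not hold muscle genes had medians from -0.32 to 0.02, beside -0.02 for all genes tested. Of the other surface pumps and exchangers, 2 of 6 were positive (median -0.19, 0 called, 0 at an unadjusted p of 0.05, 0 in DESeq2). The smallest p-values there belonged to the potassium-dependent exchangers Slc24a5, of intracellular organelles, at 3.46 ± 0.947 CPM in the 4 KP tumours (SD) against 5.57 ± 1.83 CPM in KPH2 2 to KPH2 4 (SD, n = 3) (log2 fold change 0.69, adjusted p = 0.333, edgeR), and Slc24a1, a photoreceptor exchanger, at 1.58 ± 0.874 and 0.835 ± 0.490 CPM (log2 fold change -0.87, adjusted p = 0.513, edgeR). KPH2 1 was at 6.47 CPM of Slc24a5 and 1.28 CPM of Slc24a1, and the log2 fold changes with it were 0.75 and -0.68. The Golgi pump Atp2c1, the only one of its list tested, was at 151 ± 19.9 CPM in the 4 KP tumours (SD) against 122 ± 13.5 CPM in KPH2 2 to KPH2 4 (SD, n = 3) (log2 fold change -0.32, SE 0.16, adjusted p = 0.336, edgeR). KPH2 1 had 166 CPM of Atp2c1, and with it the log2 fold change was -0.19.

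Of 11 other genes of store-operated entry, 3 were positive (median -0.20, 0 called in edgeR, 0 at an unadjusted p of 0.05 and 0 in DESeq2). The Orai1 regulators Efcab4b (Cracr2a) and Efcab4a (Cracr2b) had the smallest p-values. Efcab4b was at 3.29 ± 1.14 CPM in the 4 KP tumours (SD) against 1.90 ± 0.417 CPM in KPH2 2 to KPH2 4 (SD, n = 3) (log2 fold change -0.81, adjusted p = 0.320, edgeR), and Efcab4a at 9.22 ± 1.83 and 6.53 ± 0.892 CPM (log2 fold change -0.50, adjusted p = 0.331, edgeR). In KPH2 1 they were at 1.20 and 4.56 CPM, and with it the log2 fold changes were -0.95 and -0.61. Orai1 per length made up 32.0 ± 6.70% of Orai1, Orai2 and Orai3 in the 4 KP tumours (SD) against 38.8 ± 5.76% in KPH2 2 to KPH2 4 (SD, n = 3). The share in KPH2 1 was 19.7%, below every KP tumour.

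Of 14 other genes of store release and the store lumen, 11 were negative (median -0.21, 0 called, 3 at an unadjusted p of 0.05, 1 in DESeq2). Calu, a calcium-binding protein of the secretory pathway that also inhibits SERCA2, was the one with the smallest p. It was at 1630 ± 441 CPM in the 4 KP tumours (SD) against 882 ± 69.8 CPM in KPH2 2 to KPH2 4 (SD, n = 3), and at 1750 CPM in KPH2 1, within the KP range (log2 fold change -0.89, SE 0.23, adjusted p = 0.0896, edgeR). With KPH2 1 the log2 fold change of Calu was -0.57. Of 10 genes of mitochondrial calcium, 3 were positive (median -0.07, 0 called, 1 at an unadjusted p of 0.05, 0 in DESeq2). The outer membrane channel Vdac1 had a log2 fold change of 0.45 (SE 0.17, adjusted p = 0.214, edgeR) and the uniporter pore Ccdc109a (Mcu) of -0.31 (SE 0.17, adjusted p = 0.400, edgeR). KPH2 1 had 223 CPM of Vdac1 and 47.5 CPM of Ccdc109a, and the log2 fold changes with it were 0.39 and -0.28.

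Downstream of cytosolic calcium, 11 of 21 genes of calmodulin, CaMKII, calcineurin and NFAT were positive (median 0.02, 0 called, 5 at an unadjusted p of 0.05, 2 in DESeq2). Rcan1, a calcineurin inhibitor that NFAT itself induces, was at 63.3 ± 26.2 CPM (SD, n = 4) in KP, 27.5 ± 3.34 CPM (SD, n = 3) in KPH2 2 to KPH2 4 and 31.0 CPM in KPH2 1 (log2 fold change -1.20, SE 0.33, adjusted p = 0.110, edgeR). Camk2g, the gamma subunit of CaMKII, was at 71.7 ± 8.31 and 105 ± 13.3 CPM and at 56.4 CPM in KPH2 1 (log2 fold change 0.55, SE 0.15, adjusted p = 0.117, edgeR). With KPH2 1 the log2 fold changes of Rcan1 and Camk2g were -1.15 and 0.37. Camk2a, which encodes the kinase subunit that the study followed as protein and was singled out here after its values were seen, was at 3.10 ± 1.03 CPM (SD, n = 4) in KP and at 15.1, 8.71 and 3.27 CPM in KPH2 2, 3 and 4 (log2 fold change 1.53, SE 0.50, adjusted p = 0.160, edgeR). KPH2 4, with the least muscle signal of these 3, had a Camk2a level inside the KP range, and the part of muscle in the Camk2a levels was not tested. Camk2d, the most abundant CaMKII gene in counts and also named after its values were seen, was lower, at 263 ± 29.3 CPM in the 4 KP tumours (SD) against 210 ± 30.9 CPM in KPH2 2 to KPH2 4 (SD, n = 3) and 195 CPM in KPH2 1 (log2 fold change -0.33, SE 0.16, adjusted p = 0.327, edgeR, and -0.35 with KPH2 1). Camk2a in KPH2 1, at 1.20 CPM, lay below every KP tumour, and including it gave Camk2a a log2 fold change of 1.18.

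The store genes restricted to muscle stood apart from the members. Of 17, 16 had positive fold changes, with a median of 1.96, and 14 had an unadjusted p under 0.05, while 0 passed the adjusted threshold in edgeR and 10 did in DESeq2. Cacna1s, the voltage sensor of skeletal muscle, was at 10.1 ± 4.08 CPM (SD, n = 4) in KP and 60.0, 69.0 and 20.3 CPM in KPH2 2, 3 and 4 (log2 fold change 2.28, SE 0.48, adjusted p = 0.0575, edgeR). Srl (sarcalumenin), a calcium-binding protein of the muscle store, was at 24.9 ± 7.85 CPM (SD, n = 4) in KP and 113, 180 and 42.7 CPM in KPH2 2, 3 and 4 (log2 fold change 2.16, SE 0.45, adjusted p = 0.0575, edgeR). Both were highest in KPH2 3, as the muscle markers were, and KPH2 1 had 4.24 CPM of Cacna1s and 15.7 CPM of Srl. With KPH2 1 their log2 fold changes were 1.91 and 1.82. The order of Atp2b4 among these 3 tumours was different, with KPH2 4 the highest.

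For the 3 members whose groups did not overlap without KPH2 1, the most similar genes over all 8 tumours were sought among 14804 genes by Pearson's r of log2 CPM. The points share their libraries, and the values are a description. Atp2b4 was most like Gm5857 (r = 0.975, Spearman's rho = 0.976), a pseudogene at 1.84 to 3.83 CPM, and Khdrbs3 (r = 0.970, rho = 0.810), an RNA-binding protein. Khdrbs3 was at 27.6 to 38.3 CPM in KP, 90.9 to 112 CPM in KPH2 2 to KPH2 4 and 10.3 CPM in KPH2 1, so that it also shared the low value of KPH2 1. Itpr1 was most like 4921513I03Rik (r = 0.982, rho = 0.976), a non-coding RNA at most at 2.45 CPM, and Epb4.1l4b (r = 0.960, rho = 0.976), a protein under the plasma membrane, at 3.09 to 10.1 CPM in KP, 1.6 to 3.69 CPM in KPH2 2 to KPH2 4 and 8.39 CPM in KPH2 1. Stim2 was most like Itgax (r = 0.983, rho = 0.976), which encodes the CD11c integrin of dendritic cells and macrophages, at 9.88 to 15.1, 26.7 to 31.0 and 10.8 CPM in the same order. Next came Grik1 (r = 0.980, rho = 0.952), a glutamate receptor, at 0.223 to 2.79, 6.12 to 16.2 and 0.240 CPM.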

How the data were processed

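RNA-seq of 8 UPS tumours was used, 4 KP and 4 KPH2, grouped by the labels. Libraries were stranded and depleted of ribosomal RNA. The authors mapped single-end reads with STAR 2.4 to GRCm38, and htseq-count (HTSeq 0.6.1) assigned uniquely mapped reads to RefSeq genes. The strand setting of the counting is not given in the sources used here. The deposited counts cover all 8 tumours and are not normalized. Deposited log2 values come from the regularized log transformation (rlog) of DESeq2 1.6, over 7 and over 8 tumours, which shrink genes with low counts and were used only as an alternative.

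The counts entered edgeR 4.0.16 in R 4.3.3 (TMM, filterByExpr with minimum count 10 and minimum total count 15, robust quasi-likelihood test, no covariates) over KP 5 to KP 8 and KPH2 2 to KPH2 4, and then over all 8 tumours, 14867 and 14805 genes. P-values were adjusted over all genes tested by the method of Benjamini and Hochberg, with a threshold of 0.05. The biological coefficient of variation was 0.313 and 0.347. Levels are CPM with TMM library sizes over all 8 tumours, fold changes come from the fits, and log2 CPM used a prior count of 2. Lengths are exon unions of GRCm38 transcripts with a RefSeq match, in GENCODE M21, and positions are from RefSeq GRCm38.p6. Each library is 1 tumour, the labels do not say whether each came from a separate mouse, p-values measure the spread between these tumours, and total counts of 6463221 to 13155510 set the counting error.

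The members and all lists were chosen with earlier results of these data known. The genes named are the 10 members, Epas1, the 2 genes of smallest p in each list of other calcium genes, and the 2 most similar genes of each member whose groups did not overlap. Camk2a, Camk2d and the single marker genes were named in addition, after their values were seen. Alternatives were all 8 tumours, DESeq2 size factors or upper-quartile scaling, no filter or a mean count of at least 50, DESeq2 1.42.0, edgeR without robust estimates, the skeletal muscle marker level as a covariate, each tumour left out in turn, and the rlog values. An allele that both groups share and a marker gene are not reported here.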

Additional observations from a re-analysis of the deposited data

Results flagged for a closer look

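Epas1 in KP 5, at 59.2 CPM, stood far below the other KP tumours, at 83.2 to 86.9 CPM. The gap to the nearest of them was 0.867 of the range of the 4, above the critical value of Dixon's test. It was the 1 of 22 groups of 4 tumours examined over the 10 members and Epas1 that did so, where chance gives about 1 in 20. Without KP 5 the log2 fold change of Epas1 was -0.92 (adjusted p = 0.0442, edgeR).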

How the results depend on the processing

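The 292 genes called became 1 with all 8 tumours, 1175 in DESeq2 and 3 with the muscle marker level as a covariate, and 55 to 349 with 1 tumour left out, the lowest without KPH2 2, then 73 without KP 7, 130 without KP 6 or KP 8, 153 without KPH2 4 and 159 without KPH2 3. Members called were 1 (Atp2b4), 0 with all 8 tumours, 0 with the muscle covariate and 2 in DESeq2 (Atp2b4 and Itpr1), and 1 in each of the 7 fits with a tumour left out. Other calcium genes called went from 0 to 1 without a filter on low counts, 2 without robust estimates, 13 in DESeq2, and 0 to 7 with a tumour left out. Epas1 stood at -0.81 on the log2 scale in edgeR and in DESeq2 (adjusted p = 0.0115 in DESeq2), and at -0.96 to -0.71 with a tumour left out. The log2 fold change of Atp2b4 ran from 0.84 to 2.24 over 17 alternatives and from 1.77 to 2.0 with a tumour left out, that of Itpr1 from -1.02 to -0.46, and that of Stim2 from 0.20 to 0.41. Stim1 changed sign in 6 of 17 alternatives and Orai1 in 5, and the other 7 members tested in 0. The cause of these shifts was not tested. No paired analysis was possible because the groups share no replicate numbers. Depth limits Atp2b2, at 0 to 8 counts.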
